A study of Mus musculus with 16 samples.

Results

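The 16 libraries of the study were divided by their own level of the 3 genes that encode C1q, the recognition molecule of the classical complement pathway. Counts of C1qa, C1qb and C1qc were each divided by the library total and scaled to counts per 1000000 (CPM) and summed. Within the 8 libraries of the Ikbkb experiment, and within the 8 libraries of the Irf1 experiment, the 4 libraries with the highest sum were called C1q-high and the other 4 C1q-low. This gave 8 C1q-high and 8 C1q-low libraries out of 16. The groups were therefore selected on measured values and are not a treatment, so a gene that differs between them is a gene that varied together with C1q in these libraries. The 3 C1q genes were left out of every comparison that follows.

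All libraries came from tumours of 200 to 350 mm3 formed by YUMM1.7, a mouse melanoma line. The cells were sorted and are called cDC1s in the series, the conventional dendritic cells that carry XCR1 and cross-present tumour antigen. The Ikbkb set held 4 floxed controls (genotype label IKKbFF) and 4 libraries with Ikbkb deleted (IKKbdeltaXCR1), and the Irf1 set held 4 floxed controls (IRF1FF) and 4 libraries with Irf1 deleted (IRF1deltaXCR1). Ikbkb encodes the kinase IKK-beta of the NF-kB pathway and Irf1 an interferon-induced transcription factor. Both deletions are named after XCR1, and the protocol text speaks of female mice and names only the Ikbkb genotypes. The sources used here do not give ages, the Cre line or the sort gate. The labels do not say whether the libraries of a group came from separate mice, so a p-value covers only library-to-library spread, which may be technical. Each library started from 1000 pg of RNA, amplified with SMART-Seq v4 chemistry over 12 PCR cycles.

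C1q is made mainly by macrophages and related myeloid cells rather than by the liver, which makes most other complement proteins. It is built from A, B and C chains, binds antibody complexes, dying cells and debris, and is read by receptors on phagocytes such as LAIR1. In tumours, C1q genes mark a large class of resident-type macrophages that take up dead cells and handle lipid, and they are commonly found together with Apoe, Csf1r, Ms4a7 and Fc receptor genes. Mature cDC1s are usually low in these genes.

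The summed C1q level ran from 224 to 3101 CPM, a 13.8-fold range. In the Ikbkb set the C1q-high libraries were control replicate 4 with 1892 CPM, control replicate 2 with 1875 CPM, Ikbkb-deleted replicate 3 with 1741 CPM and control replicate 1 with 1303 CPM. The C1q-low libraries of that set were Ikbkb-deleted replicate 4 with 1165 CPM, Ikbkb-deleted replicate 2 with 1141 CPM, control replicate 3 with 1116 CPM and Ikbkb-deleted replicate 1 with 232 CPM. In words, 7 of these 8 libraries lay within a narrow band and a single deleted library lay far below them. In the Irf1 set the C1q-high libraries were control replicate 4 with 3101 CPM, Irf1-deleted replicate 1 with 1354 CPM, control replicate 2 with 1045 CPM and Irf1-deleted replicate 2 with 998 CPM. The C1q-low libraries were Irf1-deleted replicate 3 with 699.5 CPM, control replicate 3 with 599.7 CPM, Irf1-deleted replicate 4 with 384 CPM and control replicate 1 with 224 CPM. This set was spread more evenly, with 1 control library above all others.

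**Figure D1:**
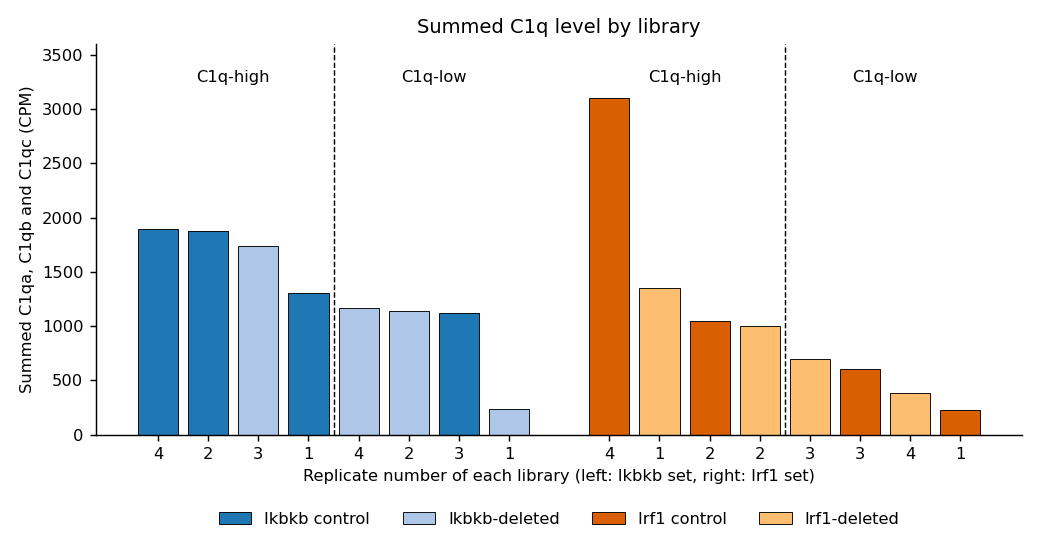
Summed CPM of C1qa, C1qb and C1qc (vertical axis) in each of the 16 libraries (bars, labelled by replicate number and coloured by genotype group), ordered within each set, with dashed lines at the division into C1q-high and C1q-low. In the Ikbkb set the division falls between 1303 and 1165 CPM, and in the Irf1 set between 998 and 699.5 CPM.

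The division was a narrow one in the Ikbkb set, where the libraries just inside and just outside it differed by a ratio of 1.12, against 1.43 in the Irf1 set. The geometric mean of the C1q-high libraries was 1.86-fold that of the C1q-low libraries in the Ikbkb set and 3.41-fold in the Irf1 set. Genotype was balanced in the Irf1 set, with 2 controls and 2 deleted libraries on each side. It was not balanced in the Ikbkb set, where 3 of the 4 C1q-high libraries were controls and 3 of the 4 C1q-low libraries were Ikbkb-deleted. In bulk RNA from sorted cells, more cells that express C1q and more C1q RNA per cell cannot be told apart.

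Total counts ran from 16478671 to 27433818 per library and did not differ detectably between the groups (exact permutation test within sets, two-sided, p = 0.292). Mitochondrial genes took 1.62% to 3.15% of counts in the C1q-high libraries (median 2.51%) and 0.699% to 2.11% in the C1q-low libraries (median 1.42%). The exact permutation p was 0.000408 over 4900 relabellings (0.00163 after Benjamini-Hochberg adjustment over 4 library measures), and 0.0286 in either set alone, the smallest value that 4 against 4 can give. Genes with at least 1 count numbered 18540 to 22900 in the C1q-high and 18468 to 20507 in the C1q-low libraries, a mean difference of 1124 genes (exact permutation p = 0.00939, adjusted 0.0188). That difference had an exact permutation p of 0.171 in the Ikbkb set alone and 0.0571 in the Irf1 set alone. Thus the C1q-high libraries also carried more mitochondrial RNA, without overlap inside either set, and the mitochondrial percent was added to the model as a covariate where stated, while the part of the gene number was not tested.

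**Figure D2:**
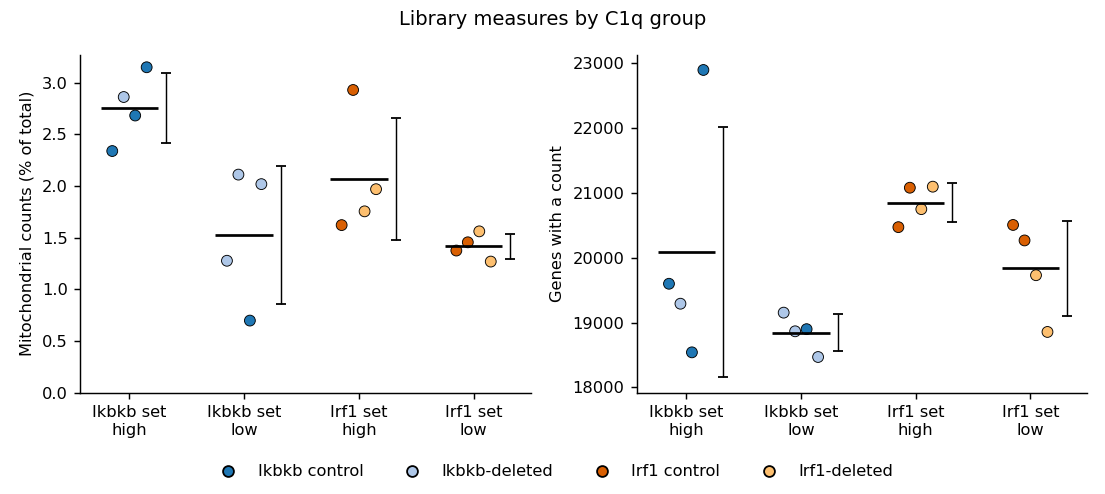
Percent of counts from mitochondrial genes (left) and number of genes with a count (right) for the 4 libraries of each set and C1q group, coloured by genotype group. Horizontal lines are means and vertical bars are 1 SD either side of the mean (n = 4) drawn beside it. In each set all 4 C1q-high libraries lie above all 4 C1q-low libraries in mitochondrial percent.

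The first comparison asked which of the remaining genes differed between the 8 C1q-high and 8 C1q-low libraries, with the set as a block. Expression is given as scaled CPM, in which the library total is corrected by TMM, and the test was edgeR's quasi-likelihood test with Benjamini-Hochberg adjustment over all 16037 genes tested. No gene passed an adjusted p of 0.05 in either direction (0 called, 0% of genes), and the smallest adjusted p was 0.432. At an unadjusted p under 0.05 there were 522 genes higher (3.25%) and 774 genes lower (4.83%) in the C1q-high libraries. That balance depended on the processing, with 728 higher and 435 lower under upper-quartile scaling and 1661 higher and 1224 lower without the filter on low counts. With the mitochondrial percent as covariate there were 226 higher and 213 lower. The 0 was not shared by every tool. DESeq2 called 29 genes higher and 12 lower, and limma voom called 0. In 8 of the DESeq2 calls, 4 or more libraries had no count. The genes below with the smallest p are accordingly described by their values.

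In 15 genes (0.0935%) every C1q-high library exceeded every C1q-low library within both sets, and in 11 genes (0.0686%) the reverse held. The genes named here are the 6 with the smallest p on each side among them, above a floor of 3 in mean log2 CPM and without predicted genes and pseudogenes. The lack of overlap within sets was thus a criterion of choice. Apoe (ENSMUSG00000002985, mm10 chromosome 7, 19696109 to 19699188, minus strand), the lipid carrier apolipoprotein E, measured 1715 to 5077 scaled CPM in the C1q-high libraries (median 2107). It measured 355 to 1706 scaled CPM in the C1q-low libraries (median 917). Its groups did not overlap across all 16 libraries, although the margin was narrow. The log2 fold change was 1.47 (SE 0.34), with an adjusted p of 0.48 in edgeR and 0.00876 in DESeq2.

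Csf1r (ENSMUSG00000024621, mm10 chromosome 18, 61100598 to 61132149, plus strand), the receptor for the growth factors on which macrophages depend, measured 181 to 399 scaled CPM (median 226) against 42.8 to 157.5 scaled CPM (median 132). This gene too separated all C1q-high from all C1q-low libraries, with a log2 fold change of 1.19 (SE 0.29). C3ar1, the receptor for the complement fragment C3a, measured 50.9 to 157 scaled CPM (median 129) against 22.1 to 103 (median 41.6), a log2 fold change of 1.24 (SE 0.27). Its groups overlapped across sets but not within a set. Blnk, an adaptor of B cell receptor signalling that is also found in macrophages, measured 9.96 to 41.2 scaled CPM (median 20.9) against 2.02 to 18.1 (median 8.27), a log2 fold change of 1.43 (SE 0.36). Slc37a2, a sugar-phosphate transporter of the endoplasmic reticulum in macrophages, measured 16.1 to 36.4 scaled CPM (median 23.9) against 6.36 to 16.8 (median 10.8). Ntpcr, a nucleoside triphosphatase, measured 42.9 to 82.7 scaled CPM (median 63.6) against 24.0 to 52.2 (median 39.7). These 2 genes of metabolism had log2 fold changes of 1.06 (SE 0.21) and 0.67 (SE 0.15), and their groups too overlapped only across sets. The edgeR adjusted p was 0.48 for Csf1r, C3ar1, Blnk and Ntpcr and 0.432 for Slc37a2, and the DESeq2 adjusted p of these 5 genes ran from 0.00455 to 0.0352.

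The 6 genes on the other side had no common role. Urgcp, a gene named for promoting proliferation, measured 41.8 to 71.6 scaled CPM in the C1q-high libraries (median 53.8) and 61.0 to 98.7 in the C1q-low libraries (median 75.1), a log2 fold change of -0.50 (SE 0.10). Taf8, a subunit of the general transcription factor TFIID, measured 11.4 to 25.7 scaled CPM (median 21.4) against 22.6 to 41.7 (median 33.4), a log2 fold change of -0.75 (SE 0.15). Both overlapped only across sets. Appbp2, a substrate receptor of a ubiquitin ligase, had a log2 fold change of -0.45 (SE 0.09), with medians of 94.8 and 132.5 scaled CPM. Slc44a1, a choline transporter, had a log2 fold change of -0.49 (SE 0.12), with medians of 64.3 and 95.4 scaled CPM. Pcyox1l and Ankrd9 had log2 fold changes of -0.66 (SE 0.17) and -0.72 (SE 0.19). On the log2 scale all 6 differences were smaller in size than those of the higher genes other than Ntpcr, and their edgeR adjusted p ran from 0.432 to 0.515. DESeq2 gave an adjusted p of 0.000559 for Urgcp, 0.00214 for Taf8 and 0.00583 for Appbp2, and values from 0.0585 to 0.0701 for the other 3 genes.

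Dividing the libraries into high and low discards how far apart they lie, so the log2 of the C1q sum was also entered as a number, with the set as a block. The slope is then the log2 change of a gene for each doubling of the summed C1q level. In this fit 61 genes rose with the C1q sum (0.38% of 16037) and 5 fell with it (0.0312%), by edgeR's quasi-likelihood test at an adjusted p under 0.05. Slopes of the 61 ran from 0.32 to 1.90 with a median of 0.82, while the median slope of all genes was -0.0043. A slope of 1 means that the gene moved in proportion to C1q.

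The count of genes depended on which libraries were included. Without Irf1 control replicate 4, the library with the highest C1q sum, 31 genes were called, of which 30 were among the first 66. Without Ikbkb control replicate 3, a C1q-low library with a C1q sum of 1116 CPM, 113 were called. Without the lowest library of the Ikbkb set the count was 68, and without the lowest of the Irf1 set 61. Without the highest library and the lowest of each set no gene was called, 730 had an unadjusted p under 0.05 and the smallest adjusted p was 0.052. In that fit the 61 genes all had a positive slope, with a median of 0.93 (all genes -0.023), and 46 had an unadjusted p under 0.05. The remaining libraries had also served to choose these genes, so this is no separate test. In the Ikbkb set alone 1 gene was called (Ms4a7) and in the Irf1 set alone 133. With the mitochondrial percent in the model 75 genes were called, 44 of them among the 66, and with Xcr1, the Cd3 genes and Col3a1 in the model 33 were called, 28 of them among the 66. With the 4 genotype groups as the block 44 were called, all of them among the 66.

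Genes with the pattern most like the C1q sum were found by correlating log2 CPM with the log2 C1q sum over the 16 libraries. Both were scaled by TMM for this and centred within each set, whereas the slopes use the C1q sum without TMM. The 8 highest are described by their values, since they were chosen for this likeness. Ms4a7, a 4-pass membrane protein of macrophages, ranked first with a Pearson r of 0.985 and a Spearman rho of 0.976. It measured 46.3 to 223 scaled CPM in the C1q-high libraries (median 148) and 6.54 to 134 in the C1q-low libraries (median 30.6). The lowest values were in Irf1 control replicate 1 (6.54) and Ikbkb-deleted replicate 1 (20.5), the libraries with the lowest C1q sums of their sets. Its slope was 1.16 (SE 0.07). Clec4n, which encodes the fungal-sensing lectin Dectin-2, followed with r = 0.976 and measured 39.4 to 159 scaled CPM (median 104) against 13.9 to 99.8 (median 30.0).

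Lair1, an inhibitory receptor that binds collagen and C1q, had r = 0.970 and measured 21.5 to 90.8 scaled CPM (median 59.6) against 3.92 to 82.3 (median 18.6). The high value of 82.3 among the C1q-low libraries was that of Ikbkb control replicate 3, whose C1q sum was 1116 CPM. Ikbkb-deleted replicates 4 and 2, with C1q sums nearer the division (1165 and 1141 CPM), measured 40.7 and 52.9 scaled CPM. Fcgr3, the low-affinity activating IgG receptor, had r = 0.962 and measured 98.7 to 239 scaled CPM (median 143) against 38.6 to 144 (median 94.0). Pilra, an inhibitory receptor of myeloid cells, had r = 0.957, and Clec4a2, an inhibitory lectin of the same family as Clec4n, had r = 0.955. C3ar1 and Apoe, already named, completed the 8 with r = 0.953 and 0.948. Without the 2 libraries farthest from the median C1q sum (Ikbkb-deleted replicate 1 and Irf1 control replicate 1) r stayed between 0.892 and 0.969 in these 8 genes. Their slopes ran from 0.71 for Fcgr3 to 1.16 for Ms4a7.

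**Figure D3:**
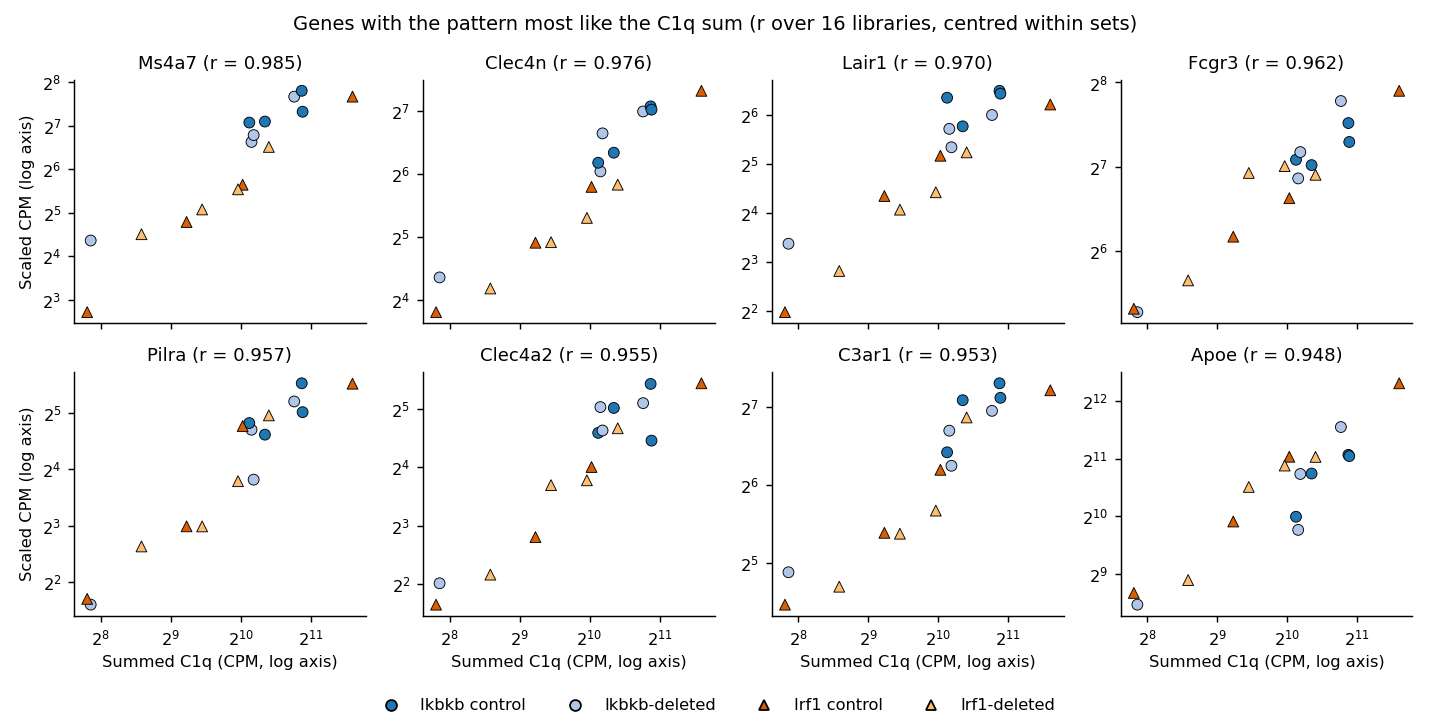
Scaled CPM of 8 genes (vertical axes, log scale) against the summed C1q level in CPM (horizontal axis, log scale) for 16 libraries, with circles for the Ikbkb set and triangles for the Irf1 set, coloured by genotype group. The value r above each panel, from 0.948 to 0.985, is Pearson's r of log2 values centred within sets. For r the C1q sum was scaled by TMM, while the horizontal axis shows it without that scaling. The C1q-low libraries lie towards the lower left.

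Genes were then read by role, using lists chosen with earlier results of these data known. The median log2 fold change of all 16037 genes was -0.03, with 7521 of them above 0 (46.9%). Of 22 resident tumour macrophage genes, all tested, 17 had a higher mean in the C1q-high libraries and the median log2 fold change was 0.68. None was called in the 8-against-8 comparison and 7 rose with the C1q sum, beside 0.38% of all genes, the share against which the counts of each list below are also read. Among them were Ms4a7, Pf4, Adgre1, Csf1r, Cd14 and Fcgr1. Adgre1, which encodes the macrophage marker F4/80, measured 55.2 to 199.8 scaled CPM (median 106) against 13.1 to 128 (median 62.8), with a slope of 0.86 (SE 0.10, edgeR adjusted p = 0.000107). Pf4, the platelet factor chemokine that tissue macrophages also make, measured 20.8 to 163 scaled CPM (median 57.3) against 7.06 to 52.0 (median 18.1), with a slope of 0.92 (SE 0.12). The groups of Adgre1 overlapped within both sets, and those of Pf4 overlapped only across sets. In both genes the C1q-high median was the larger.

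The macrophage list did not move as a whole. Siglec1, the sialic acid receptor of resident macrophages, had the largest log2 fold change of the list (1.66, SE 0.43) and a slope of 1.04, with an adjusted p of 0.0678. The mannose receptor gene Mrc1 had a slope of 0.47 (SE 0.15, edgeR adjusted p = 0.259). Cd163, Timd4 and Lyve1, receptors of perivascular and long-lived resident macrophages, had negative slopes that did not pass the test, and Cd163 was at 0 in a C1q-high library. Without Irf1 control replicate 4, 3 of the 7 members stayed called. The summed level of the list, in CPM without the TMM correction, was 1609 to 3635 (median 2258) in the C1q-high libraries. In the C1q-low libraries it was 696 to 1863 CPM (median 1359). The ranges did not overlap in the Ikbkb set and overlapped in the Irf1 set.

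Receptors for complement came next. Of 13 genes for complement and C1q receptors 11 were tested, the median log2 fold change was 0.63, and 4 rose with the C1q sum, namely Lair1, Itgam, C3ar1 and C5ar1. Without Irf1 control replicate 4 the count was 2, with an edgeR adjusted p of 0.183 for Itgam and 0.117 for C5ar1, and with the mitochondrial percent as covariate it was also 2. C5ar1, the receptor for the inflammatory fragment C5a, measured 24.5 to 79.1 scaled CPM (median 38.3) against 9.64 to 50.9 (median 25.98), with a slope of 0.57 (SE 0.09). Itgam, the alpha chain of complement receptor 3, measured 7.51 to 18.8 scaled CPM (median 12.0) against 0.808 to 10.5 (median 7.23), with a slope of 0.82 (SE 0.16). Broadly expressed genes whose products can also bind C1q did not pass the test. Calr, which encodes calreticulin, had a slope of -0.19 (SE 0.05, edgeR adjusted p = 0.13), C1qbp a slope of -0.10 (SE 0.06) and the large endocytic receptor gene Lrp1 a slope of 0.25 (SE 0.16). Of the 25 other complement components and regulators, 19 were tested, none was called and the median log2 fold change was 0.000204. C3, the central component, had a slope of 0.24 (SE 0.37) and Cfp, which encodes properdin, a slope of 0.18 (SE 0.13).

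Fc receptor genes, through which phagocytes bind antibody, gave 4 called of 8 tested, with a median log2 fold change of 0.67. Besides Fcgr3 and Fcgr1 these were Fcgr4 and Fcer1g. Fcer1g, the signalling chain shared by activating Fc receptors, measured 114 to 453 scaled CPM (median 219.7) against 36.8 to 336 (median 90.03), with a slope of 0.78 (SE 0.10). Fcgr4 measured 9.68 to 67.3 scaled CPM (median 49.2) against 3.83 to 88.5 (median 12.2), with a slope of 0.98 (SE 0.15). Its highest value lay in a C1q-low library, so the medians and not the extremes separated the groups. The inhibitory receptor gene Fcgr2b had a slope of 0.34 (SE 0.12, edgeR adjusted p = 0.296), and Fcgrt, the neonatal Fc receptor gene of many cell types, a slope of -0.10 (SE 0.07).

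Of 18 scavenger and lectin receptor genes tested, 4 rose with the C1q sum, with a median log2 fold change of 0.31 over the list. They were Msr1, Clec4n, Clec4a2 and Clec4d. Msr1, the class A scavenger receptor, measured 33.0 to 77.5 scaled CPM (median 52.2) against 10.3 to 46.1 (median 28.9), with a slope of 0.68 (SE 0.07), and its groups did not overlap within either set. Clec4d had few counts, with a median of 1.87 scaled CPM in the C1q-high and 0.56 in the C1q-low libraries. None of the 22 efferocytosis genes tested was called, and their median log2 fold change was -0.11. The lipid-associated macrophage list of 20 genes gave 2 called of 19 tested, with a median log2 fold change of 0.15. Besides Apoe this was Trem2, a lipid-sensing receptor, which measured 16.5 to 81.1 scaled CPM (median 46.4) against 6.33 to 40.7 (median 18.5), with a slope of 0.82 (SE 0.09). Spp1, the osteopontin gene and one of the most abundant genes here, measured 3397 to 7299 scaled CPM (median 4671) against 2264 to 7702 (median 4369). Its slope was 0.12 (SE 0.10, edgeR adjusted p = 0.734), so the osteopontin transcript was not detectably related to C1q in these libraries. Arg1 had a slope of 0.33 (SE 0.34).

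Monocyte genes gave 2 called of 16 tested, Cx3cr1 and Itgam, and a median log2 fold change of 0.20. Without Irf1 control replicate 4 the count was 1. Cx3cr1, the fractalkine receptor, measured 24.3 to 141 scaled CPM (median 106) against 3.44 to 80.3 (median 29.0), with a slope of 1.08 (SE 0.14, edgeR adjusted p = 0.000485). Ly6c2, the marker of classical monocytes, had a slope of 1.03 (SE 0.26, adjusted p = 0.13), with log2 fold changes of -0.77 in the Ikbkb set and 2.70 in the Irf1 set. Markers of cDC2s, the other class of conventional dendritic cells, also gave 2 called of 15 tested, with a median log2 fold change of 0.07. They were Itgam and Sirpa, the latter with a slope of 0.51 (SE 0.08, edgeR adjusted p = 0.00316). Without Irf1 control replicate 4 no cDC2 marker stayed called. For 20 macrophage transcription factors the median log2 fold change was 0.12. Among them Spi1, which encodes PU.1, had a slope of 0.10 (SE 0.16), and Maf a slope of 0.34 (SE 0.10, edgeR adjusted p = 0.231). Of 30 lysosomal genes 3 rose, the proteases Ctsc (slope 0.50) and Lgmn (0.32) and the acid phosphatase Acp5 (0.87), and without Irf1 control replicate 4 the count was 1, with an edgeR adjusted p of 0.317 for Ctsc and 0.415 for Lgmn. The list had a median log2 fold change of 0.05. Chemokine genes gave 3 calls of 24 (Pf4, Ccl12 and Ccl9) and pattern recognition genes 3 of 23 (Tlr1, Tlr2 and Cd14). Tlr2 had a slope of 0.81 (SE 0.13), Ccl12 of 0.78 (SE 0.15) and Ccl9 of 0.57 (SE 0.11). Without Irf1 control replicate 4 none of these chemokine and pattern recognition calls was left.

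**Figure D4:**
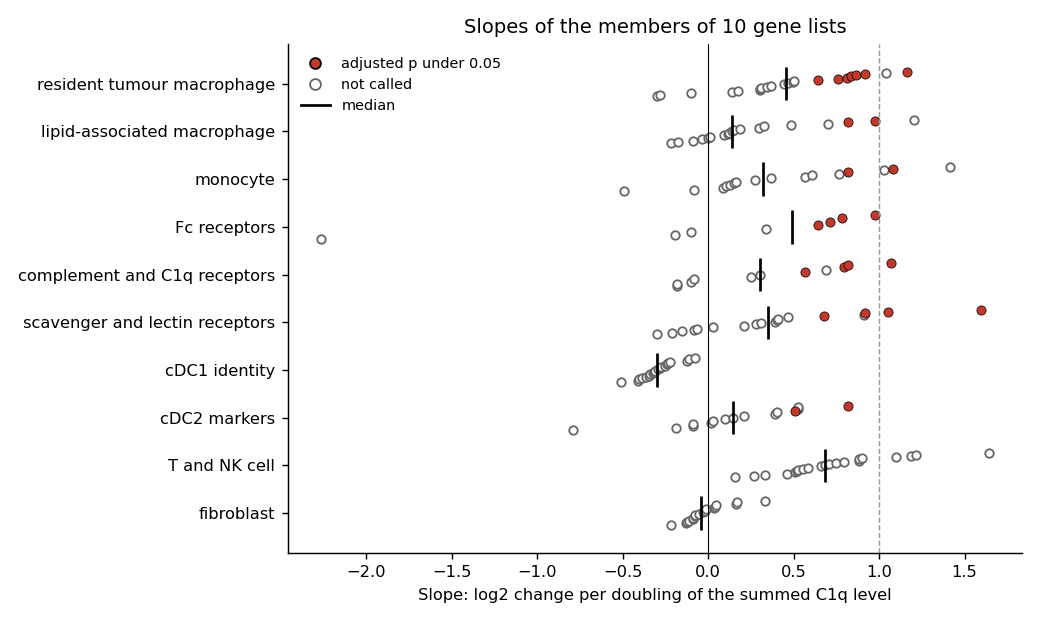
Slope of each tested member of 10 gene lists (horizontal axis, log2 change per doubling of the summed C1q level). Filled points had an edgeR adjusted p under 0.05, open points did not, short vertical lines are list medians, and the dashed line marks a slope of 1. Called members lie at slopes from 0.51 to 1.60 in 7 of the 10 lists, and none in the cDC1 identity, T and NK cell or fibroblast lists.

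The lists, chosen with earlier results of these data known, held 618 of the 16037 genes tested. Over all lists, 29 of the 61 genes were members of at least 1 list, 11 of them in the macrophage or monocyte lists, and 32 were in none. Those outside the lists and with the smallest adjusted p included Ccr1, a chemokine receptor of myeloid cells (slope 0.67, SE 0.07), Clec4a3, a lectin (1.04, SE 0.12), Abcc3, an efflux transporter (1.20, SE 0.14), Lst1, a gene of the MHC region active in myeloid cells (0.81, SE 0.10), and Lyz2, the macrophage lysozyme (0.79, SE 0.10). Cybb, the catalytic chain of the phagocyte oxidase, had a slope of 1.00 (SE 0.13). Lyz2 was the most abundant of these and measured a median of 1582 scaled CPM in the C1q-high against 605 in the C1q-low libraries. They were picked after their values were seen. The 5 genes that fell were 4833439L19Rik, Fam20b, a kinase of proteoglycan synthesis, Uhrf1bp1l, the nuclear import receptor gene Ipo5 and Timp3, an inhibitor of metalloproteases. Their slopes lay between -0.20 and -0.37, which in size overlapped the smallest slopes of the genes that rose.

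Several of the 61 genes were neighbours, with 20 of them within 1000000 bases of another called gene, in 5 clusters. The matching share over all genes was not worked out, so this count only describes position. On mm10 chromosome 6, between 122847138 and 123275265, lay C3ar1 with the lectin genes Clec4a1, Clec4a3, Clec4a2, Clec4n and Clec4d. On chromosome 19, between 11321039 and 11604849, lay Ms4a7, Ms4a4a, Ms4a6c, Ms4a6b and Ms4a6d. Chromosome 1 held Sh2d1b1, Fcgr4, Fcgr3 and Fcer1g between 170277320 and 171234365, chromosome 5 held Pilra, Pilrb1 and Pilrb2 between 137821952 and 137871815, and chromosome 3 held Sirpb1a and Sirpb1c. Members of the Clec4a, Ms4a6, Pilrb and Sirpb1 families are close copies of each other, so reads may have been shared or lost between them in the authors' counting, and their single values are uncertain. The sources used here give no strand setting for the counting, so reads of a gene and of any antisense partner cannot be told apart.

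Promoter sequences of genes that moved with C1q are shown because members of this group rose together and because PU.1 and MAF factors are textbook regulators of macrophage genes. They were read from a RefSeq table of build GRCm38.p6 (mm10), which had entries for 49 of the 61 genes and for 10 of the 12 genes named above for rising by either criterion. Both of the motifs below were searched on both strands in 300 bases, from 250 before the start of transcription to 50 after it. The PU.1 core GAGGAAG occurred in 18 of the 60 promoters of the called genes (30%) and in 13.6% of all 32851 promoters of that length. The MAF motif TGCTGAC occurred in 3 of the 60 (5%) and in 4.67% of all. The 60 promoters belonged to 49 genes and the 32851 to 27025 genes. A gene with several starts was thus counted more than once, and its windows can overlap. A match describes these letters and is not a binding site. The 250 bases before the start are given 5′ to 3′ on the gene's strand for 3 of the genes most like C1q that held a match, with the matches in capitals, and for C3ar1, which held neither motif.
Lair1, chr7:4063205-4063454, minus strand: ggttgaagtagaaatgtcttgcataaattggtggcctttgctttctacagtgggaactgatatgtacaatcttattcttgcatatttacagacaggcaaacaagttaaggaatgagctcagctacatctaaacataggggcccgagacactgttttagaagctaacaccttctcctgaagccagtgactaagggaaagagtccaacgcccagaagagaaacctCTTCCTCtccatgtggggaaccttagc
Fcgr3, chr1:171059395-171059644, minus strand: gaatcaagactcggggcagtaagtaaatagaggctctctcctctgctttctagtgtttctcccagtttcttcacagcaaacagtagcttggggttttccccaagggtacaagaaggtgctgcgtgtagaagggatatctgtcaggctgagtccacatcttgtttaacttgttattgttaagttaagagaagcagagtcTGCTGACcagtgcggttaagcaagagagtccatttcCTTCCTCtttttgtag
Pilra, chr5:137836279-137836528, minus strand: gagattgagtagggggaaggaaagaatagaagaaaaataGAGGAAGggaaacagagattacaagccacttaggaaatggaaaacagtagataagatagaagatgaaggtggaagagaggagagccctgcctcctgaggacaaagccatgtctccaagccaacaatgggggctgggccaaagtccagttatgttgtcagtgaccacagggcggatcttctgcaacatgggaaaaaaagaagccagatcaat
C3ar1, chr6:122856158-122856407, minus strand: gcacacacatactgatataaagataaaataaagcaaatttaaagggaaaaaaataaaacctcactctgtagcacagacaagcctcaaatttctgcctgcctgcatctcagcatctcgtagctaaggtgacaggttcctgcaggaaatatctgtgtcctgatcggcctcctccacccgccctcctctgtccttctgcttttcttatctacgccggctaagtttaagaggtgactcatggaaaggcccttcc

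Lair1 and Fcgr3 held the PU.1 core on the opposite strand, as CTTCCTC, with its first base 27 and 16 bases before the start. Fcgr3 also held the MAF motif 52 bases before the start shown. Another Fcgr3 start, whose window overlaps this one, held the same PU.1 and MAF matches 7 and 43 bases before it, and both windows were counted. Pilra held the core on its own strand 211 bases before the start. Neither motif occurred in the promoters of Apoe, C3ar1, Ms4a7, Clec4a2, Blnk, Ntpcr or Slc37a2, which says only that these letters are not in those windows.

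The sets share no library, so genes chosen in 1 set can be read in the other. Of 132 genes that rose with the C1q sum in the Irf1 set alone, 131 were tested in the Ikbkb set, and 93 of these had a positive slope there (71.0%, against 52.1% of all genes tested in both). A positive slope with an unadjusted p under 0.05 was found for 43 of them (32.8%, against 3.96% of all). A larger group of 1285 genes had a positive slope at an unadjusted p under 0.05 in the Irf1 set, and here the measures differed. The slope was positive in the Ikbkb set in 44.9% of them, below the share of all genes. It was positive with an unadjusted p under 0.05 in 7.94% of them, against 3.96% of all. In the reverse direction, 535 genes were chosen by a positive slope at an unadjusted p under 0.05 in the Ikbkb set. Of these 59.6% had a positive slope in the Irf1 set, against 50.02% of all. A positive slope with an unadjusted p under 0.05 there was found in 19.1%, against 9.51% of all. Between C1q-high and C1q-low libraries, genes higher at an unadjusted p under 0.05 in the Irf1 set were higher in the Ikbkb set in 28.4% of cases (all genes 48.6%). Genes higher by that measure in the Ikbkb set were higher in the Irf1 set in 51.4% of cases (all genes 51.3%). They were higher with an unadjusted p under 0.05 in the other set in 3.95% (all genes 4.51%) when chosen in the Irf1 set. When chosen in the Ikbkb set the share was 4.93% (all genes 5.62%). The single gene called in the Ikbkb set, Ms4a7, had a slope of 1.24 (SE 0.10) in the Irf1 set.

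Several lists had medians of opposite sign in the sets, among them those of cDC1s and of T and NK cells. All 20 cDC1 identity genes were tested, none was called, and the median log2 fold change of C1q-high against C1q-low was -0.64 over both sets, -1.85 in the Ikbkb set (0 of 20 above 0) and 0.60 in the Irf1 set (20 of 20 above 0). Xcr1, the defining receptor, measured 14.7 to 195.8 scaled CPM in the C1q-high libraries (median 57.7) and 12.1 to 318 in the C1q-low libraries (median 54.9), so the groups overlapped almost fully. Its log2 fold change was -1.61 (SE 0.67) in the Ikbkb set and 1.38 (SE 0.68) in the Irf1 set. The difference between sets was 2.97 (SE 1.07), with an edgeR adjusted p of 0.266 for the interaction of set and C1q group. Irf8, the factor on which cDC1s depend, went from -1.87 to 0.72 and the cross-presentation receptor gene Clec9a from -1.87 to 0.23. The summed level of the list, in CPM without the TMM correction, ran from 1198 to 5149 (median 2435) in the C1q-high libraries. In the C1q-low libraries it ran from 1125 to 9950 CPM (median 2477). Within the Ikbkb set it was 1389 to 2629 CPM in the C1q-high and 1853 to 9950 CPM in the C1q-low libraries. With 1 library left out, the median log2 fold change over both sets ran from -0.87 to -0.35, the latter without Ikbkb-deleted replicate 1.

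MHC class II genes followed the same arrangement, with a median log2 fold change of -1.53 in the Ikbkb set and 0.81 in the Irf1 set over 12 genes. Mature migratory DC genes had medians of -1.02 and 0.83, MHC class I genes -0.78 and 0.76, type I interferon-stimulated genes -0.68 and 0.67, interferon-gamma-inducible genes -0.49 and 1.101, and monocyte genes -0.64 and 0.84. T and NK cell genes had the widest gap, from -0.95 (1 of 21 above 0) to 1.75 (21 of 21 above 0). Single libraries of the Ikbkb set weighed on such medians. Without Ikbkb control replicate 3, a C1q-low library, the median over both sets was 1.02 for T and NK cell genes (0.36 with all 16 libraries). It was then 0.12 for mature migratory DC genes (-0.22 with all 16) and 0.21 for MHC class I genes (-0.04 with all 16). Cd3e, a chain of the T cell receptor complex, measured 5.73 to 56.3 scaled CPM in the C1q-high (median 18.5) and 2.95 to 85.9 in the C1q-low libraries (median 11.3). Its difference between sets was 3.17 (SE 0.95, edgeR adjusted p = 0.216). No gene passed the test of a difference between sets (0 of 16037, 0%, 1994 at an unadjusted p under 0.05, and 0 with limma voom), and 3 did without Ikbkb-deleted replicate 4. The resident macrophage list had medians of 0.64 and 0.65, and the list of complement and C1q receptors 0.71 and 0.72. Other myeloid lists were uneven between the sets. Fc receptor genes had medians of 0.14 and 1.09, scavenger and lectin genes 0.03 and 0.91, chemokine genes -0.02 and 0.72 and pattern recognition genes -0.02 and 1.04. Lipid-associated macrophage genes went the other way, with 0.41 and 0.02. Endothelial genes had medians of 0.14 and 0.29, and over both sets the median was -0.08 without Ikbkb-deleted replicate 3. Keratinocyte genes had medians of -0.53 over 3 genes tested and -2.16 over 4 genes tested, with 1 gene above 0 in each set. Their median over both sets was -1.51 with all 16 libraries and 0.70 without Irf1-deleted replicate 3.

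**Figure D5:**
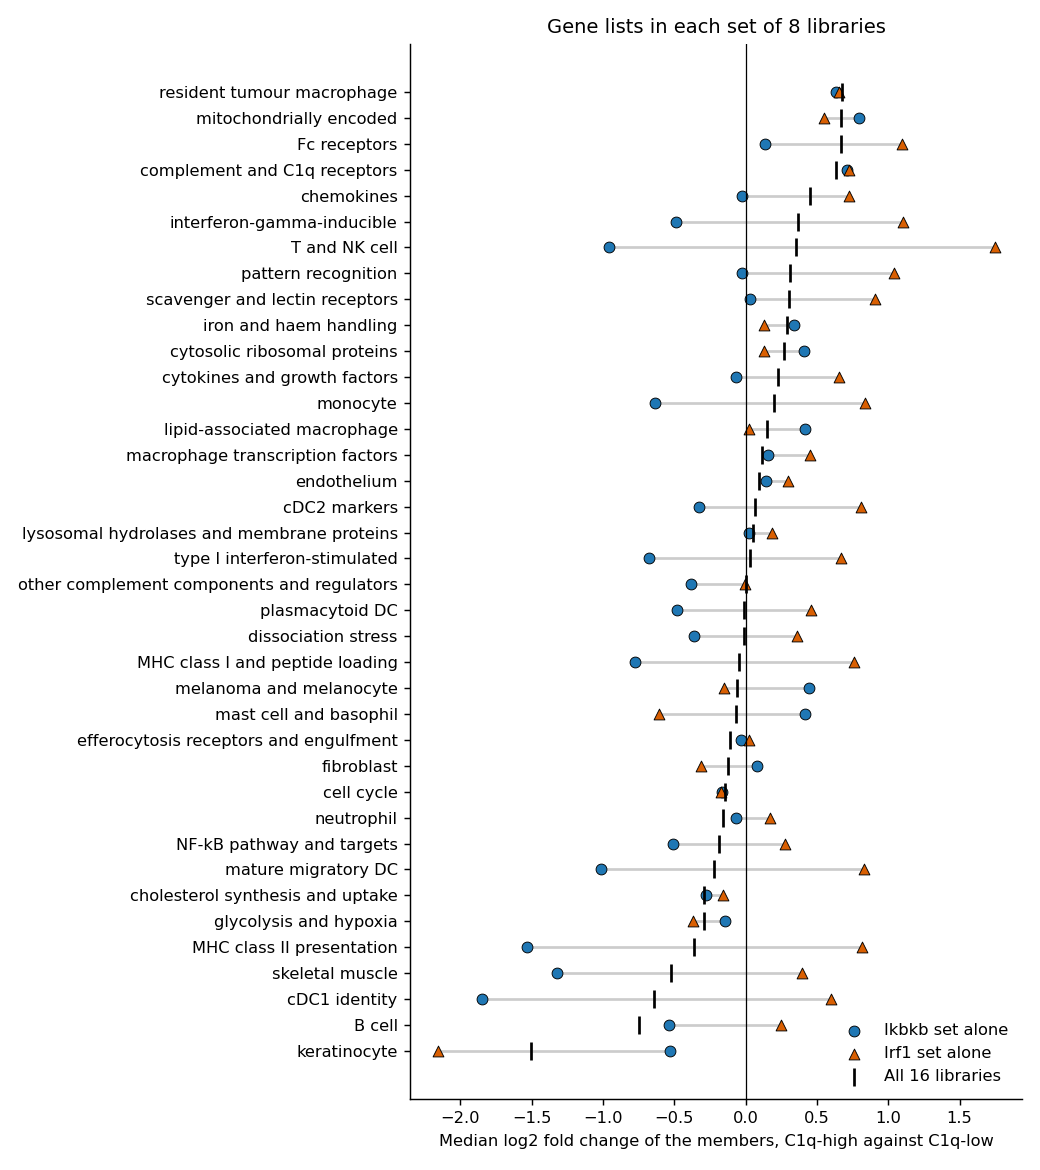
Median log2 fold change of C1q-high against C1q-low libraries over the tested members of each of 38 gene lists (horizontal axis), in the Ikbkb set alone (circles), the Irf1 set alone (triangles) and all 16 libraries (black ticks). Resident macrophage genes lie at 0.64 and 0.65 in the sets, cDC1 identity genes at -1.85 and 0.60, and T and NK cell genes at -0.95 and 1.75.

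With the C1q sum as a number over both sets, T and NK cell genes had a median slope of 0.68, with 21 of 21 slopes above 0, none of them called. Their summed level, in CPM without the TMM correction, ran from 135 to 1014 (median 387) in the C1q-high and from 100 to 1987 (median 236) in the C1q-low libraries. Ncr1, Klrb1c, Gzma, Prf1 and Ifng were each at 0 in at least 1 library. cDC1 identity genes had a median slope of -0.30, with 0 of 20 above 0. Without Ikbkb-deleted replicate 1 that median slope was 0.003, and the median slope of MHC class II genes was 0.22 (-0.11 with all 16 libraries). In the model with Xcr1, the Cd3 genes and Col3a1 as covariates, called members numbered 4 in the resident macrophage list, 3 in the Fc receptor list and 3 in the scavenger and lectin list, against 7, 4 and 4 without covariates. With the mitochondrial percent as covariate 4 T and NK cell genes were called. Fibroblast genes were abundant, their median was -0.12 on the log2 scale over 18 genes, and none was called. Col3a1 measured 1602 to 7737 scaled CPM (median 3195) in the C1q-high and 1465 to 13336 (median 3201) in the C1q-low libraries. B cell, plasmacytoid DC, neutrophil, mast cell, melanoma, endothelium, keratinocyte and muscle lists also held no call. The median for neutrophil genes was -0.16, that for B cell genes -0.74 and that for melanoma genes, of which 5 of 14 were tested, -0.06.

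Genes of mitochondria, ribosomes and metabolism held no call in edgeR with all 16 libraries. All 8 tested genes encoded in mitochondrial DNA had a positive log2 fold change, from 0.59 to 0.95 (median 0.67). DESeq2 called 2 of them higher in the C1q-high libraries. Without Ikbkb control replicate 3, 7 had a positive slope with an edgeR adjusted p under 0.05. In that fit 99 of all 16664 genes tested were called with a positive slope. mt-Cytb, a respiratory chain subunit, measured 5905 to 15438 scaled CPM in the C1q-high (median 9734) and 3844 to 10245 in the C1q-low libraries (median 5575). For cytosolic ribosomal protein genes the median was 0.27, with 24 of 25 above 0, and they were 25 of 25 above 0 in the Ikbkb set and 18 of 25 in the Irf1 set. Genes of glycolysis and hypoxia had a median of -0.29, with 3 of 22 above 0 and 7 lower at an unadjusted p under 0.05, and genes of cholesterol synthesis and uptake a median of -0.29, with 1 of 21 above 0. None of either list was called. Ldha, lactate dehydrogenase, had a log2 fold change of -0.20 (SE 0.13). Cell cycle genes had a median of -0.15 over 25 genes.

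Genotype does not enter the rule, so each deletion was also compared with its controls with the C1q group as a covariate. No gene passed for Ikbkb (0 of 16037, 0%, 739 at an unadjusted p under 0.05) or for Irf1 (0 of 16037, 0%, 471 at an unadjusted p under 0.05), and without the covariate the numbers were 0 for both, with 770 and 419 at an unadjusted p under 0.05. Ikbkb itself had a log2 fold change of -0.87 (SE 0.33) in the libraries labelled Ikbkb-deleted with the covariate and -0.79 without it. Irf1 had a log2 fold change of -0.26 (SE 0.42) in the libraries labelled Irf1-deleted with the covariate and -0.26 without it. Between the C1q groups Ikbkb had a log2 fold change of -0.13 (SE 0.27) and Irf1 of 0.07 (SE 0.31), so neither targeted gene was distinguishable between C1q-high and C1q-low libraries. The sign for Irf1 changed with the genotype groups as block (-0.039) and in the Ikbkb set alone (-0.60).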

How the data were processed

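The deposited values are unnormalized counts, 1 column for each of the 16 libraries and 1 row for each Ensembl gene. The submitters' processing notes name HTSeq 0.6.1p1, STAR 2.5.3a, cutadapt 1.10, bcl2fastq 2.17.1.14 and the build mm10, and give no annotation release or strand setting. GENCODE M21 supplied symbols for 32684 of 32697 genes, and gene coordinates. Reads carry no molecular identifiers, so counting error alone understates the uncertainty.

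C1qa, C1qb and C1qc were removed before fitting. The filter was filterByExpr by genotype group (minimum count 10, minimum total 15) in edgeR 4.0.16 under R 4.3.3. Libraries were scaled by TMM, and quasi-likelihood fits had set as a block with either the C1q group or, as an alternative to it, the log2 C1q sum as a number. p-values were adjusted by Benjamini-Hochberg over all genes. Library measures used exact permutation within sets. The members, the 38 lists (668 of 714 entries tested) and the tests were chosen with earlier results of these data known. The text names the genes with the smallest p among those not overlapping within sets, the 8 with the pattern most like C1q, called or highly expressed list members, and Xcr1, Cd3e, Col3a1, Ikbkb and Irf1. Other members of lists and the genes that are said to be so were picked after their values were seen.

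Alternatives were RLE and upper-quartile scaling, no filter, DESeq2 1.42.0, voom in limma 3.58.1, at least 5 CPM in 4 libraries, a robust fit, a minimum 1.5-fold change, genotype groups as block, leaving out the libraries next to the division, each set alone, each library left out, and Xcr1, the Cd3 genes or Col3a1 as covariate. Added after seeing the data were no block, the mitochondrial percent, all 3 covariates together, and the alternatives of the fit on a number. The scripts were tested on simulated data. Promoter sequences are from RefSeq. Some list members are not reported here.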

Additional observations from a re-analysis of the deposited data

Results flagged for a closer look

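Among 54 groups of 8 libraries examined, 6 held a library far from the others. The rule flags about 1 in 20 groups by chance when all 8 values come from a single normal distribution. Here each group joined libraries of both sets, and many groups held genes chosen for their values. The chance rate for these groups is therefore not known. Irf1 control replicate 4, the library with the highest C1q sum, stood above the other C1q-high libraries in Apoe (5077 scaled CPM, next 3000.1), Csf1r (399 scaled CPM, next 280.4) and Blnk (41.2 scaled CPM, next 23.4). Ikbkb-deleted replicate 3 stood above the other C1q-high libraries in Slc44a1 (97.9 scaled CPM, next 73.0). Ikbkb control replicate 3 stood above the other C1q-low libraries in Irf1 (892 scaled CPM, next 384) and in Ikbkb (121 scaled CPM, next 71.9). Without Irf1 control replicate 4 the slope of Blnk had an edgeR adjusted p of 0.124 and that of Csf1r 0.00133.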

How the results depend on the processing

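No gene was called between the C1q-high and C1q-low libraries under any setting run except DESeq2 (41 genes) and the C1q sum as a number (66 genes). With the number, the count was 250 in DESeq2, 33 with Xcr1, Cd3 genes and Col3a1 as covariates, 1 in the Ikbkb set alone, 133 in the Irf1 set alone and 0 without the 3 libraries at the ends of the range, and it ran from 31 to 113 when 1 library was left out. The difference between sets ran from 0 to 3 genes when 1 library was left out. The difference in genes with a count was 1236.5 in the Ikbkb set (exact permutation p = 0.171) and 1011 in the Irf1 set (exact permutation p = 0.0571), neither of which passes 0.05. The share of counts in the 100 most abundant genes was 0.82 percentage points higher in the C1q-high libraries of the Irf1 set (exact permutation p = 0.0571), lower by 1.01 points in the Ikbkb set (exact permutation p = 0.4) and lower by 0.09 over both sets.

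Signs turned in 4 genes that were never called. Cd3e had a log2 fold change of -0.81 in the Ikbkb set. Irf1 had -0.039 with genotype groups as block, -0.60 in the Ikbkb set, -0.17 with no block, -0.17 with Cd3 genes as covariate and -0.060 with all 3 covariates, and ran from -0.050 to 0.39 with 1 library left out. Xcr1 had 0.37 in limma voom, 1.38 in the Irf1 set and 1.60 with the mitochondrial percent as covariate, and ran from -0.51 to 0.22 with 1 library left out. Ikbkb had 0.20 in the Irf1 set and 0.35 with the mitochondrial percent as covariate, and ran from -0.25 to 0.20 with 1 library left out. The cause of these changes was not tested. No paired analysis was possible because replicate numbers only follow the order of the samples.

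Limits are few libraries, groups cut from a continuous level, a narrow division and an uneven genotype mix in the Ikbkb set, and 3 libraries that set most of the range of C1q.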
